A study of Mus musculus with 15 samples.

Results

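The gastric aspartic proteases examined here are the products of 4 genes, Cym, Pga5, Pgc and Ctse, which were chosen by gene symbol out of 44788 symbols in the tables and were each present as 1 entry. Their RNA was followed in stomachs of C57BL/6 mice at 15 timepoints, with 1 transcriptome per timepoint: 7 embryonic days (E12.5 to E18.5), D1, D3, D5, W1 and W2 after birth (5 timepoints, called D1-W2), and W3, W6 and W8 (3 timepoints, called W3-W8). No difference between the groups in genotype, strain or treatment is given. By the methods of the study whole stomachs were collected, which hold forestomach and glandular stomach together. Stomachs up to W2 were taken without regard to sex and later ones came from males, so that sex and age cannot be told apart in comparisons with W3-W8. The labels give an age only, and the break between W2 and W3 was set at weaning, where the study also drew a phase boundary from these transcriptomes, so that tests across it are not independent of the data. The study describes replicates of several embryonic stomachs combined up to E17.5 and of single stomachs at later ages, and whether the RNA was pooled in this way is not stated. The labels name stomach as the tissue throughout, whereas the methods for the RNA name liver.

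Aspartic proteases of the pepsin family are made as inactive precursors that cut themselves free in acid, and a pair of aspartates in the active site carries out the cleavage. Prochymosin, encoded by Cym, gives chymosin, which clots milk in the stomach of the suckling animal by cleaving casein and digests other proteins only weakly. Pga5 (pepsinogen 5 of group I) and Pgc (pepsinogen C, also called progastricsin) encode pepsinogens of the gastric glands, and Pgc is a product of chief cells in the adult. Cathepsin E, encoded by Ctse, stays mainly inside cells, surface mucous cells among them, and is not a digestive enzyme of the gastric juice.

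The 4 genes lie on 4 chromosomes. In the deposited tables (GRCm38), Cym occupies chr3:107211295-107221732 on the minus strand, Pga5 chr19:10668957-10678071 on the minus strand, Pgc chr17:47726842-47734478 on the plus strand and Ctse chr1:131638314-131675507 on the plus strand. Cym, Pga5 and Pgc each have 9 exons in the GENCODE transcripts that match their RefSeq transcripts, and Ctse has 10. The coding sequences hold 379 codons in Cym, 387 in Pga5, 392 in Pgc and 397 in Ctse. Each coding sequence contains 2 in-frame runs that encode the catalytic aspartate followed by threonine and glycine. They are shown because they mark the 4 genes as 1 family while the bases around them differ, with the 9 bases of the 3 codons in capitals and the coordinates given for these 9 bases.

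Cym, exon 3, chr3:107218664-107218672, minus strand: gtggtgtttGACACAGGCtcctcagaa
Pga5, exon 3, chr19:10675093-10675101, minus strand: gttgtcttgGATACTGGAtcttcagtc
Pgc, exon 3, chr17:47729312-47729320, plus strand: gtccttttcGACACTGGCtcctccaac
Ctse, exon 4, chr1:131663371-131663379, plus strand: gtcatctttGACACCGGTtcatccaac
Cym, exon 7, chr3:107213460-107213468, minus strand: gccgttctgGACACAGGCactgccctg
Pga5, exon 7, chr19:10669609-10669617, minus strand: ggtattatgGACACAGGGacctccttg
Pgc, exon 7, chr17:47733022-47733030, plus strand: ggcattgtaGACACAGGCacctctctg
Ctse, exon 8, chr1:131672259-131672267, plus strand: gccatagtgGACACAGGGacctctctc

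Between pairs of the 4 genes, 62.9% (Cym and Pgc) to 66.5% (Cym and Ctse) of aligned coding bases were identical. The longest identical run in any pair was 16 bases (Pga5 and Ctse). None of the 1187, 1368, 1339 and 2077 different stretches of 50 bases in the transcripts of Cym, Pga5, Pgc and Ctse, respectively, occurred in a transcript of another gene of the annotation, the other members included. By the methods of the paper, reads of less than 50 nucleotides were removed, but the submitters' processing notes name other software. If this limit also held for the deposited values, a read that matches these transcripts without error matches no other gene of the annotation.

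The RefSeq promoter table (GRCm38.p6) matched 2 of the 4 genes, Cym and Pgc. The 250 bases before their start sites are printed 5′ to 3′ on the strand of the gene, with TATAAA in capitals.

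Cym, chr3:107221733-107221982, minus strand: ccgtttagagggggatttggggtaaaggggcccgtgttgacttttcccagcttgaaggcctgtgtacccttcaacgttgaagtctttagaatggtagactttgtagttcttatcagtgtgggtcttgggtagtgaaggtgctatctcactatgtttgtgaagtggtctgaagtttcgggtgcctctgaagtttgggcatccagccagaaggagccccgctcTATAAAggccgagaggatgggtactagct
Pgc, chr17:47726592-47726841, plus strand: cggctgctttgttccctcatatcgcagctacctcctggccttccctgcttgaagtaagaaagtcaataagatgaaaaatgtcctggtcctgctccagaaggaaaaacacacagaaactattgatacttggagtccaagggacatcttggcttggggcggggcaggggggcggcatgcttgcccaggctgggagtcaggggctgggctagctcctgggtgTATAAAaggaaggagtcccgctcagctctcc

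The motif TATAAA began 29 bases upstream of the start in Cym and 31 bases upstream in Pgc, on the strand of the gene in both. Among 32851 promoter windows of the same 250 bases, 12.4% held TATAAA on either strand, and 2.63% held it on the strand of the gene within the last 50 bases. AGATAA, a single form of the site that GATA factors are known to bind, was searched on both strands and occurred in 9.99% of all windows. The letters TGACCT, which nuclear receptors are known to bind, occurred on either strand in 14% of them. Neither occurred in the windows of Cym and Pgc. Other forms of these sites were not searched, so the windows cannot be said to lack sites for these factors.

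RNA levels are given as deposited, in FPKM, which divides the fragments of a gene by the length of its transcript and by the depth of the transcriptome and so allows levels of different genes to be compared. Read from the confidence bounds as if these were Poisson, each transcriptome held between 10648700 and 16984600 fragments on genes. Bounds cover counting error only, and without a second transcriptome the spread between animals of 1 age is unknown. Tissue markers followed the labels in most respects. The summed FPKM of 6 glandular epithelium markers (Epcam, Cdh1, Krt8, Krt18, Krt19 and Cldn18) was 500.4 to 2859 in the embryonic group, 2117 to 4203 in D1-W2 and 4222 to 5971 in W3-W8, and none of the 6 was at 0. That of 6 forestomach markers was between 514.9 and 9910 from E14.5 to W6 but 12.3 at W8, so that forestomach RNA was nearly absent from the W8 transcriptome. Liver markers were high at D1 (Alb 460.5 FPKM, against 65.4 or less at every other timepoint), while at W8 Alb was 0.672 and Afp 1.19 FPKM. All 6 liver genes had their summed range at 33.7 to 250.6 FPKM in the embryonic group, 260.6 to 1247 in D1-W2 and 1474 to 2397 in W3-W8, and the last range was mostly Apoa1. The part of these differences in the protease levels was not tested.

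Cym was the leading protease RNA before weaning. Its level was 323 FPKM at E12.5, 600.1 at E13.5, 1073 at E14.5, 2993 at E15.5, 9621 at E16.5, 13454 at E17.5 and 35716 at E18.5. After birth it was 50223 FPKM at D1, 73934 at D3, 71608 at D5, 117136 at W1 and 106792 at W2. It was then 7718 FPKM at W3, 307.4 at W6 and 193.8 at W8. The highest level, at W1, was 604-fold the lowest, at W8, and only the transcriptomes from D3 to W2 reached 50% of the highest. The 604-fold ratio rests on a W8 level at 0.591% of the gene's own mean, a low level described below. By rank among all genes, Cym was at place 280 at E12.5, at place 2 from E16.5 to D5, at place 1 at W1 and W2, and at place 396 at W8.

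Pga5 rose later than Cym at low levels but came sooner to its plateau, since it reached 10% of its highest level at E18.5 and Cym at E17.5, whereas it reached 50% at E18.5 and Cym at D3. Its level lay between 45.8 and 72.7 FPKM from E12.5 to E15.5, was 355 at E16.5 and 2183 at E17.5, and reached 15711 at E18.5. It was 19819 FPKM at D1, 22305 at D3, 15901 at D5 and 27728 at W1, and then 6196 at W2. At W3, W6 and W8 it was 688.5, 222.9 and 151.3 FPKM. From E18.5 to W1, every transcriptome was above 50% of the highest level, and no other transcriptome was. Pga5 was thus already at 22.3% of its highest level at W2, when Cym was still at 91.2% of its own.

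Pgc had a low plateau and a late rise. It was 137 FPKM at E12.5, 142 at E13.5, 168 at E14.5, 197 at E15.5, 318 at E16.5, 414 at E17.5 and 463 at E18.5. It was 1214 FPKM at D1, 1558 at D3, 1753 at D5 and 1847 at W1, which are 0.803% to 1.22% of its highest level. It was 10781 FPKM at W2, 86123 at W3, 122459 at W6 and 151321 at W8. Only the W3-W8 transcriptomes exceeded 10% of the highest level, and Pgc was the highest of all genes at W3 and W8.

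Ctse was the least abundant of the 4 at every timepoint up to W2. As deposited, its highest level was 243-fold its lowest, the smallest such ratio among the 4. Its FPKM was 4.10 at E12.5, 8.35 at E13.5, 15.7 at E14.5, 38.9 at E15.5, 127 at E16.5, 143 at E17.5 and 292 at E18.5. It was 277 FPKM at D1, 537.6 at D3, 367.6 at D5, 546.4 at W1 and 898.7 at W2. At W3 it was 995.8 FPKM, at W6 956.5 and at W8 795.6. Ctse was at 10% of its highest level or above from E16.5 on, in 11 transcriptomes in a row.

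**Figure D1:**
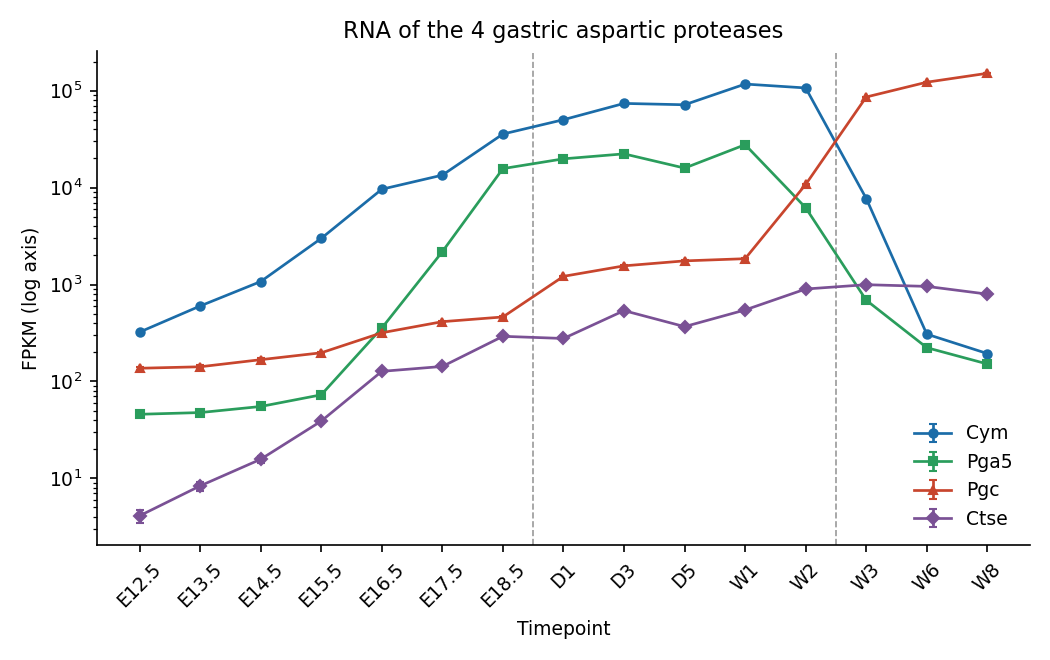
FPKM (log axis) of Cym, Pga5, Pgc and Ctse at the 15 timepoints; error bars are the deposited confidence bounds, mostly smaller than the symbols, and dashed lines separate the embryonic, D1-W2 and W3-W8 groups. Cym ends at 193.8 FPKM at W8 after 117136 at W1, while Pgc ends at 151321.

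When the 15 levels of a gene were put in order, 13 of the 14 neighbouring pairs had confidence bounds that did not overlap, for each of the 4 genes. The bounds overlapped for E12.5 and W6 in Cym, for E12.5 and E13.5 in Pga5 and in Pgc, and for W1 and D3 in Ctse. The order beyond these pairs differs by more than the counting error, which says nothing of the spread between animals.

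The lowest levels of Cym, Pga5 and Pgc lay at a similar small part of each gene's own mean. At E12.5, 14 of 124 genes with a mean of at least 1000 FPKM over the 15 timepoints were under 1% of their mean, and these 14 were at a median of 0.561% of it, between 0.492% and 0.984%. Among them Pgc was at 0.541%, Pga5 at 0.616% and Cym at 0.984%. Genes that are high at other ages stood at similar values: Clps at 0.532%, Gkn2 at 0.525% and the squamous keratin Krt13 at 0.492% at E12.5, and Krt13 at 0.393% at W8. The embryonic globin Hbb-y, whose mean of 359 FPKM is below the limit of 1000, was at 0.458% at W8 but at 0.247% at W3. The part of the mean was thus not the same in all genes and transcriptomes. Pgc and Pga5 were under 1% from E12.5 to E15.5, and Cym at E12.5, W6 and W8 (0.591% at W8). Ctse was nowhere under 1% but stood only just above it at E12.5, at 1.03%. The origin of this level was not tested, and with 0.5% of each gene's mean subtracted, a step chosen after the values were seen, the levels at E12.5 were 159 FPKM for Cym, 8.63 for Pga5, 10.4 for Pgc and 2.1 for Ctse. In the same way Cym was 143 FPKM at W6 and 29.9 at W8.

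**Figure D2:**
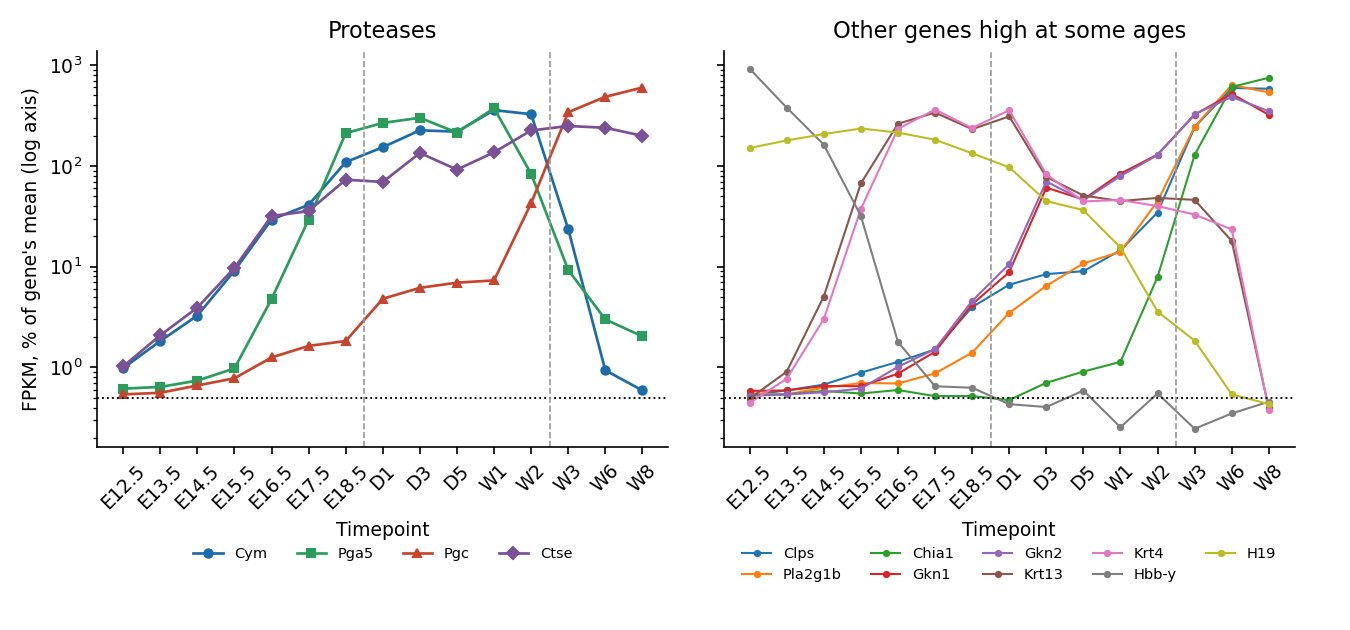
FPKM as a percentage of the gene's own mean over the 15 timepoints (log axis), for the 4 proteases (left) and for 9 other genes that are high at some ages (right); the dotted line marks 0.5%. Pgc (0.541%) and Clps (0.532%) start at nearly the same value at E12.5, and Cym comes down to 0.591% at W8.

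Taken as shares of the summed FPKM of the 4 genes, the protease RNA changed its make-up with age. Cym made up 63.4% at E12.5 (61.8% to 65.0% by the confidence bounds), 92.3% at E16.5, 68.4% at E18.5, 79.5% at W1 and 85.7% at W2. Pga5 was at 2.20% at E15.5, reached its largest share of 30.1% at E18.5, and was at 27.7% at D1, 18.8% at W1 and 4.97% at W2. Pgc was at 26.8% at E12.5, 0.886% at E18.5, 1.25% at W1, 8.65% at W2, 90.2% at W3, 98.8% at W6 and 99.3% at W8. Ctse was between 0.371% (W1) and 1.22% (E16.5) in all 15 transcriptomes. The share of Pgc at E12.5 was 5.79% and that of Cym 88.2% with 0.5% of the means subtracted, so the early share of Pgc depended on this low level, whereas at W3 the share of Pgc was 90.3% after the same step.

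**Figure D3:**
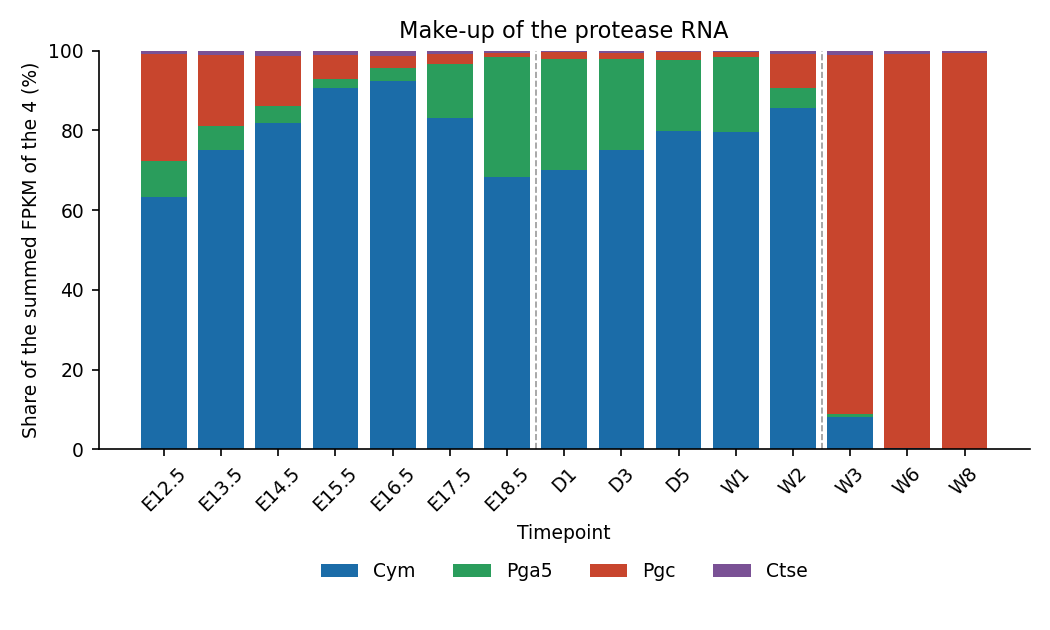
Share (%) of each protease in the summed FPKM of the 4 genes at every timepoint, as stacked bars that add up to 100%. Cym fills 63.4% to 92.3% of the bar up to W2, Pga5 is widest at E18.5 (30.1%), and Pgc takes 90.2% at W3.

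In FPKM as deposited, the sum itself changed less than its make-up once the animals were born. It was 509 FPKM at E12.5 and 52181 at E18.5, between 71533 (D1) and 147258 (W1) in D1-W2, and between 95525 (W3) and 152462 (W8) in W3-W8. The 4 genes held 0.0661% of all FPKM at E12.5, 16.2% at W1 and 13.6% at W8. After median-ratio scaling, Pgc alone was at 214878 at W6 and 223313 at W8. On that scale Cym was at 124903 and Pga5 at 29567 at W1, so the sum was then higher at W6 and W8 than at W1. In whole tissue, fewer cells of a type and less RNA per cell cannot be told apart.

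The exchange of places between the members was read from their ratios. At W2 Cym was 9.91-fold higher than Pgc, and at W3 Pgc was 11.2-fold higher than Cym. If the log ratio ran straight between the 2 timepoints, the levels were equal at postnatal day 17.4. Pgc had overtaken Pga5 earlier, between W1 (Pga5 15.0-fold higher) and W2 (Pgc 1.74-fold higher), which corresponds to day 12.8 by the same reading. Ctse overtook Pga5 between W2 and W3 and Cym between W3 and W6. Before birth there was 1 exchange: Pga5 was 2.71-fold lower than Pgc at E15.5 and 1.12-fold higher at E16.5. At W8 Pgc was 781-fold higher than Cym, a ratio that rests on a Cym level near the 0.5% line.

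Steps between consecutive timepoints were called where FPKM + 1 changed by at least 2-fold, without a test, since each timepoint is 1 transcriptome. Cym was called higher in 3 of 14 steps and lower in 2, Pga5 higher in 3 and lower in 3, Pgc higher in 3, and Ctse higher in 3. For Cym the steps up ended at E15.5, E16.5 and E18.5, with 2.79-fold (2.73 to 2.86 by the bounds), 3.21-fold and 2.65-fold, where 1.37%, 2.96% and 1.40% of all tested genes were called higher. Ctse was called higher in the same 3 steps, by 2.48-fold, 3.26-fold and 2.05-fold. Pga5 was called in 3 steps in a row, 4.88-fold to E16.5, 6.15-fold to E17.5 (1.62% of genes called higher) and 7.20-fold to E18.5, and only 8 of 16902 genes, itself included, rose as much in this last step. Per summed glandular epithelium marker, the steps of Ctse were 1.90-fold, 2.07-fold and 1.89-fold, so that only that to E16.5 stayed above 2-fold. On the same scale the step of Cym to E16.5 was 2.04-fold, and those of Pga5 to E16.5 and E18.5 were 3.10-fold and 6.65-fold. With 0.5% of the means subtracted, the step of Pga5 to E16.5 was 8.94-fold. Pgc then had steps of 2.70-fold to E14.5 and 2.69-fold to E16.5 that were not called without the subtraction. Cym likewise had steps of 2.75-fold to E13.5 and 2.08-fold to E14.5, and Ctse of 3.02-fold and 2.16-fold. The earliest step called for Cym, Pgc and Ctse thus depended on the low level.

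In the step across birth, Pgc was the 1 member called. From E18.5 to D1, Pgc was 2.63-fold higher (2.54 to 2.71 by the bounds), a step in which 2.78% of genes were called higher. Cym was 1.41-fold higher, Pga5 1.26-fold higher and Ctse 1.05-fold lower in this step, none of them called, and Ctse was 1.03-fold higher after median-ratio scaling.

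The step from W1 to W2 separated Pga5 and Pgc from the others. Pga5 was 4.48-fold lower (1.33% of genes called lower) and Pgc 5.84-fold higher (1.81% called higher). Cym was 1.10-fold lower and Ctse 1.64-fold higher, neither called. From W2 to W3, Cym was 13.8-fold lower (13.7 to 13.9 by the bounds) and Pga5 9.0-fold lower, with 2.76% of genes called lower, and Pgc was 7.99-fold higher (7.94 to 8.03), with 1.28% called higher. Only 8 genes fell as much as Cym in this step, Cym included, and 14 rose as much as Pgc. From W3 to W6, Cym was again 25.1-fold lower and Pga5 3.09-fold lower, with 4.11% of genes called lower, and with 0.5% of the mean subtracted the step of Cym was 52.6-fold. After W3 neither Pgc (1.42-fold and 1.24-fold higher) nor Ctse was called in any step.

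The age groups were then compared in a fit across all 16902 genes that reached 1 FPKM at some timepoint, all 4 proteases among them, on the scale log2(FPKM + 1). The timepoints of a group served as its replicates, so that its spread holds the change with age within the group. All 4 proteases were higher in D1-W2 than in the embryonic group, where 17.0% of the tested genes were called higher (adjusted p under 0.05 in limma). The difference was 4.68 for Cym (standard error 1.15, adjusted p = 0.00353 in limma), with mean FPKM of 9111 ± 12772 (SD, n = 7) and 83939 ± 27447 (SD, n = 5). It was 5.91 for Pga5 (standard error 1.29, adjusted p = 0.00174 in limma), 3.30 for Pgc (standard error 0.49, adjusted p = 0.000218 in limma) and 3.59 for Ctse (standard error 0.86, adjusted p = 0.00297 in limma). Ordered by the size of the rise, Pga5 was at place 2 of the 16902 genes, Cym at 33, Ctse at 82 and Pgc at 108. With 0.5% of the means subtracted, the differences were 6.92 for Pga5, 4.94 for Cym, 4.89 for Pgc and 3.78 for Ctse, so that Pgc stood above Ctse.

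The ranges of the groups did not overlap for Cym and Pgc, as for 6.63% of the tested genes in this direction. They overlapped for Pga5, whose 6196 FPKM at W2 lay below the 15711 at E18.5, and for Ctse, whose 277 FPKM at D1 lay below the 292 at E18.5. In exact two-sided permutation tests over all splits of 7 and 5 timepoints, p was 0.00379 for Cym, 0.00505 for Pga5, 0.00126 for Pgc (the smallest possible) and 0.00884 for Ctse. The splits treat ages in sequence as interchangeable, so a steady change with age also gives a small p, with or without a break at birth. Pgc rose in every step from E12.5 to W2.

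Between D1-W2 and W3-W8 the members parted. Cym was lower by a log2 difference of -6.70 (standard error 1.43, adjusted p = 0.00217 in limma) and Pga5 by -5.84 (standard error 1.60, adjusted p = 0.00852 in limma), where 46.7% of the tested genes were called lower. Cym had the largest fall of the 16902 genes and Pga5 the third largest. Pgc was higher by 5.66 (standard error 0.61, adjusted p = 8.43e-05 in limma), where 4.90% of genes were called higher, and 4 genes, Pgc included, rose as much. Its mean was 3431 ± 4116 FPKM (SD, n = 5) in D1-W2 and 119968 ± 32671 (SD, n = 3) in W3-W8. For Ctse the difference of 0.91 (standard error 1.07, adjusted p = 0.485 in limma) did not pass the threshold, with means of 525.5 ± 237.9 (SD, n = 5) and 916 ± 106 FPKM (SD, n = 3).

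With W3 placed in D1-W2 instead, the differences were -7.79 for Cym, -5.72 for Pga5 and 5.01 for Pgc (adjusted p = 0.00267, 0.0343 and 0.00792 in limma). The ranges of D1-W2 and W3-W8 were apart for Cym and Pga5 (46.5% of genes lower without overlap) and for Pgc (4.90% higher without overlap), and overlapped for Ctse through its 898.7 FPKM at W2 and 795.6 at W8. The exact two-sided permutation test gave p = 0.0179, the smallest that 56 splits allow, for each of Cym, Pga5 and Pgc, and p = 0.0714 for Ctse. Here too a steady change with age gives a small p without a break at weaning. After median-ratio scaling, Ctse passed in the permutation test (log2 difference 1.5, exact two-sided p = 0.0357) and not in limma (adjusted p = 0.299).

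Values of all genes were not centred between the groups. The median log2 difference of the tested genes was -0.22 from the embryonic group to D1-W2 and -0.42 from D1-W2 to W3-W8. With median-ratio scaling, after which these medians were 0.01 and -0.003, 26.5% of genes were called higher and 24.6% lower in the first comparison, instead of 17.0% and 41.9%, and 21.5% and 15.8% in the second, instead of 4.90% and 46.7%. The calls of the 4 proteases in limma were the same under both scalings.

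The comparisons were also made without the transcriptomes of unusual marker levels. Without D1, the differences from the embryonic group were 4.85 for Cym, 5.84 for Pga5, 3.53 for Pgc and 3.80 for Ctse. Without W8, the differences between W3-W8 and D1-W2 were -5.70 for Cym, -5.39 for Pga5 and 5.47 for Pgc, with adjusted p of 0.0142, 0.0352 and 0.0007 in limma.

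**Figure D4:**
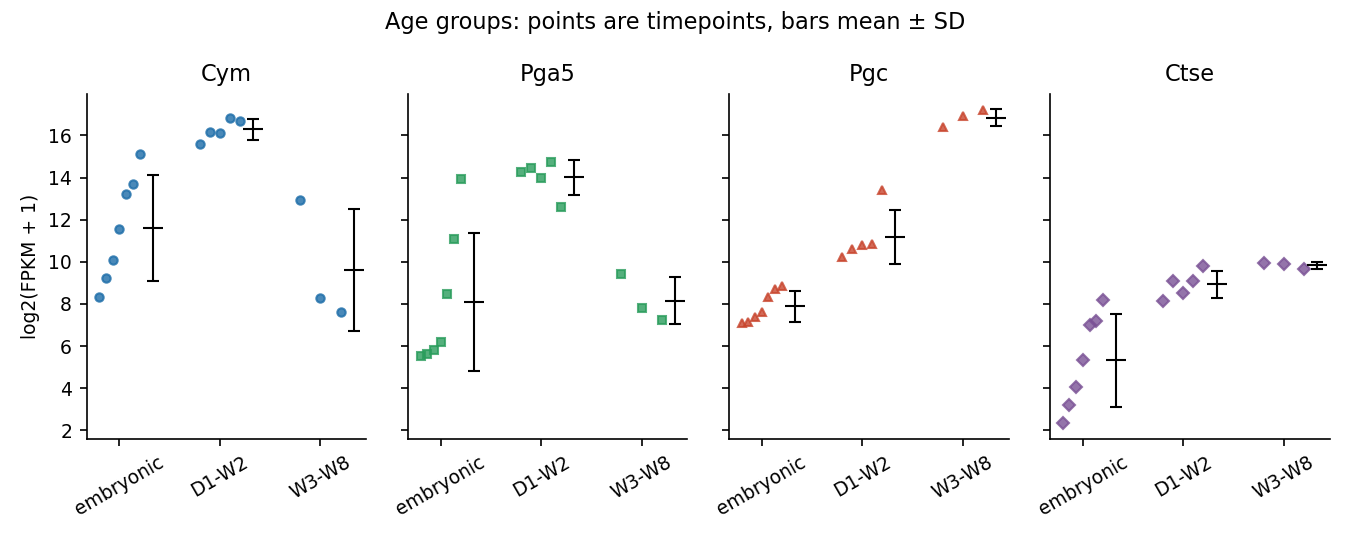
log2(FPKM + 1) of each protease in the 3 age groups; points are timepoints (7, 5 and 3) and black bars the mean ± SD. Cym and Pga5 are highest in D1-W2, Pgc rises in both comparisons, and the W2 point of Pgc (10781 FPKM) stands above the rest of its group.

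The time courses of the members were also compared with those of 9856 genes that reached 10 FPKM, by Pearson's r of log2(FPKM + 1) over the 15 timepoints, as a description over transcriptomes that all the genes share. The gene most like both Cym (r = 0.970) and Pga5 (r = 0.967) was Bpifb1, a secreted protein of mucosal surfaces, with 11845 FPKM at W1, 21.1 at E12.5 and 38.9 at W8. The next genes after it reached r = 0.962 for Cym (Ptpla) and 0.960 for Pga5 (Hsdl2), with narrow ranges of FPKM (31.5 at W8 against 95.6 at D3 for Ptpla). Pgc was most like Clps (r = 0.992), which encodes colipase, and Pla2g1b (r = 0.991), a secreted phospholipase, followed by Ces2a, Rcan1 and Sstr2 at 0.987 to 0.984. Clps reached 128680 FPKM at W6, a level of the same order as that of Pgc (122459). Ctse was most like Vsig2 (r = 0.997), Myo1d, Tmem30b, Mvp and Sytl2, all at 0.995 or above after rounding. Among the members, r was 0.906 for Cym and Pga5, 0.795 for Pgc and Ctse, and -0.10 for Cym and Pgc.

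**Figure D5:**
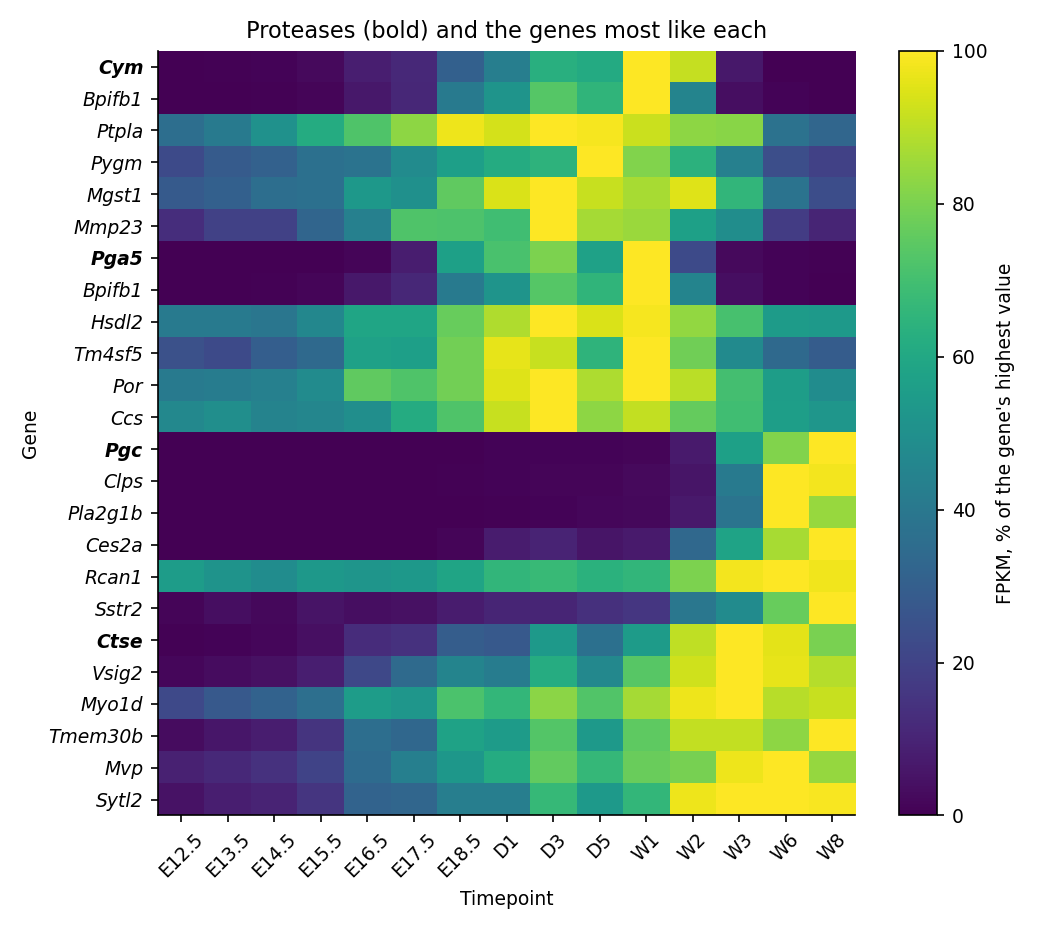
FPKM as a percentage of each gene's highest value (colour) at the 15 timepoints, for each protease (bold) and the 5 genes with the highest r to it. Bpifb1 is listed under both Cym and Pga5, and Pgc itself is at 1.22% or less up to W1, whereas Rcan1 in its block is at 48.6% to 67.3%.

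Other aspartic proteases stayed below the highest levels of Cym, Pga5 and Pgc, but not below that of Ctse. Of 4 tested genes of the pepsin family (Ctsd, Ren1, Bace1 and Bace2), 2 were called higher and 1 lower in D1-W2 against the embryonic group, with a median log2 difference of 0.99, and 0 higher and 2 lower in W3-W8 against D1-W2, with a median of -0.53. Ctsd, the lysosomal cathepsin D, was at most 635 FPKM (D1) and was called in neither comparison (adjusted p = 0.0891 and 0.933 in limma). Cym was above this highest level of Ctsd at 11 timepoints, Pga5 and Pgc at 8 each and Ctse at 4. Of 7 tested aspartic proteases of other families, 1 was higher and 2 lower in the first comparison, and 1 higher and 4 lower in the second. Over all tested genes, 17.0% and 4.90% were called higher and 41.9% and 46.7% lower. The epidermal protease Asprv1, at 1762 FPKM at D1 and 1.87 at W8, exceeded the highest level of Ctse (995.8).

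Pepsinogens act in acid, and the acid secretion genes were followed beside them. Of 15 such genes, 12 were higher and 0 lower in D1-W2 against the embryonic group (median log2 difference 1.65). In W3-W8 against D1-W2, 6 were higher and 0 lower (median 1.27, and 11 higher after median-ratio scaling). Over all tested genes, 17.0% and 4.90% were called higher in these comparisons, and the medians were -0.22 and -0.42. Atp4a and Atp4b, the subunits of the proton pump, were at 516 and 671.5 FPKM at W1, at 1149 and 1330 at W2 and at 3289 and 3404 at W8, without passing the test in the second comparison (adjusted p = 0.124 and 0.122 in limma). At W2 the pump genes were at 34.9% and 39.1% of their W8 level, when Pgc was at 7.12% of its own.

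Genes of the chief cell list differed in timing. Of 9 tested genes, 6 were higher and 0 lower in D1-W2 against the embryonic group, and 3 higher and 2 lower in W3-W8 against D1-W2 (6 higher and 1 lower of 10 after median-ratio scaling), with medians of 1.35 and 0.35. Over all tested genes, 17.0% were called higher and 41.9% lower in the first comparison, and 4.90% and 46.7% in the second. Clps and Chia1, an acidic chitinase, rose in the second comparison by log2 differences of 5.18 and 8.19, with adjusted p of 0.000128 and 1.84e-05 in limma, as Pgc did. Gif, which encodes intrinsic factor, was at 444 FPKM at W1, 1066 at W2 and 2081 at W8 and did not pass the test (adjusted p = 0.0701 in limma). Lipf was listed at 0 in all 15 transcriptomes. The summed FPKM of 11 pancreas genes was 4.16 to 57.4 in the embryonic group, 20.7 to 166.5 in D1-W2 and 83.5 to 113.6 in W3-W8, when Pgc and Clps were highest. Most of the last range was Cela1, at 72.4 to 96.0 FPKM, which rose by 2.19 in the second comparison (adjusted p = 0.00708 in limma), while Cel and Amy2a5 were at 10.5 and 11.4 at W8. Prss2 was at 0.289 FPKM or less and Pnlip at 0.731 or less in W3-W8, and the part of pancreas RNA in these levels was not tested.

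For the surface mucous cells, where cathepsin E is found, 8 of 10 genes were higher and 0 lower in D1-W2 against the embryonic group (median log2 difference 3.32), and 3 higher and 0 lower in W3-W8 against D1-W2 (median 2.01). Over all tested genes, 17.0% and 4.90% were called higher and 41.9% and 46.7% lower. Tff1 was at 153 FPKM at E12.5, 22787 at W1 and 112832 at W6. In the second comparison Gkn1 rose by 2.96 and Gkn2 by 2.90 (adjusted p = 0.00582 and 0.00650 in limma). Muc5ac, named after its values were seen, rose by 6.00 (adjusted p = 0.000175 in limma). The other 7 genes did not pass, Tff1 among them (2.22, adjusted p = 0.0719 in limma), nor did Ctse with its smaller difference of 0.91. Of 4 mucous neck cell genes, 3 were higher and 1 lower in the first comparison and 2 higher in the second.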

How the data were processed

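RNA-Seq was carried out by the authors on stomachs at 15 timepoints, with 1 transcriptome each. The authors deposited FPKM per gene entry with confidence bounds. The paper's methods name HISAT2, StringTie and GRCm38.p2, the submitters' processing notes name Bowtie 0.12.2, FastQC and the same build, and the layout of the tables is that of Cufflinks. Starts in the tables count from 0 and are given here from 1. Depth is not stated in the tables.

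Entries of a symbol were summed. Age groups were formed from the labelled ages, with breaks at birth and at weaning between W2 and W3, and compared with limma 3.58.1 in R 4.3.3 on log2(FPKM + 1), for the 16902 genes that reached 1 FPKM at some timepoint. P-values were adjusted over these genes by Benjamini-Hochberg and called under 0.05. A difference on this scale understates that of low genes. The fit was tested on simulated data with independent noise around each gene's mean and known shifts in D1-W2. The simulation held no change with age within a group, so it does not test the use of timepoints as replicates. Single genes were compared with exact permutation tests in Python 3.11.15. The named genes are the 4 proteases, the 5 genes most like each by Pearson's r, and up to 4 genes of highest maximal FPKM from each list, with some tissue markers beyond this rule. Members and lists were chosen with earlier results of these data known. Promoters are from RefSeq and transcripts from GENCODE vM21.

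Alternatives were other pseudocounts (0.1 and 10), FPKM limits, scalings, phases, shares and leaving out each timepoint. The tables of protein values were not used here.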

Additional observations from a re-analysis of the deposited data

Results flagged for a closer look

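Outlying samples were looked for in the 8 sets of the 4 proteases in the embryonic and D1-W2 groups, with Dixon's criterion on log2(FPKM + 1), which chance alone meets in about 1 of 20 groups. The W2 transcriptome was set apart for Pgc: its 10781 FPKM left a gap to the other D1-W2 timepoints of 0.808 of the range of the group, above the critical value of 0.710 for 5 samples. In FPKM as deposited, Pgc rose in every step of this group and on to 86123 at W3. The criterion takes timepoints as replicates, so it cannot tell an outlying transcriptome from a change with age. Without W2, the log2 difference of Pgc between D1-W2 and the embryonic group was 2.74 and that between W3-W8 and D1-W2 was 6.21, and both passed in limma (adjusted p = 0.000344 and 1.62e-06).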

How the results depend on the processing

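Every limma call of the 4 proteases was the same under the 14 other settings tried for pseudocount, filter, scaling, phases, test and subtraction, and without any 1 timepoint, for the 8 comparisons. The permutation tests were run as deposited and after median-ratio scaling, and that of Ctse between W3-W8 and D1-W2 passed after the scaling (log2 difference 1.5, exact two-sided permutation p = 0.0357). Counts over all genes moved: after median-ratio scaling 4441 genes were higher and 4128 lower in D1-W2 against the embryonic group, and 3606 higher and 2648 lower in W3-W8 against D1-W2. In the second comparison the higher genes were 336 with a fixed sum, 2690 after quantile normalization (1980 lower) and 410 with W3 placed in D1-W2. Leaving out single timepoints gave 4652 (without W6) to 8371 lower genes there. The cause of these differences was not tested.

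Shares moved with their definition, and the subtraction of 0.5% of each mean was chosen after the data were seen. Counted in fragments instead of per length they were 58.9% for Cym and 29.5% for Pgc at E12.5, 33.7% for Pga5 at E18.5, 83.3% for Cym at W2 and 90.4% for Pgc at W3. Without Ctse the last 3 were 30.3%, 86.3% and 91.1%. With 5 other pepsin-family proteases added, the 5 shares were 50.6%, 21.4%, 29.8%, 85.4% and 89.8%. With 0.5% of the means subtracted, Cym was at 88.2% and Pgc at 5.79% at E12.5, Cym at 85.8% at W2 and Pgc at 90.3% at W3.

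The 8 steps given here kept their direction. After median-ratio scaling they were 2.77-fold (Cym) and 7.52-fold (Pga5) up to E18.5, 5.67-fold up (Pgc) and 4.61-fold down (Pga5) to W2, 10.1-fold up (Pgc) and 10.9-fold down (Cym) to W3, and 18.8-fold down (Cym) to W6. Per glandular epithelium marker they were 2.45-fold and 6.65-fold up to E18.5, 2.07-fold up (Ctse) to E16.5, 4.60-fold up and 5.68-fold down to W2, 6.22-fold up and 17.8-fold down to W3, and 27.8-fold down to W6. With the subtraction they were 2.68-fold and 7.30-fold up to E18.5, 6.19-fold up (Pgc) to W2, 8.07-fold up and 14.1-fold down to W3, and 52.6-fold down to W6.

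Of the counts of the lists, 17 of 40 moved by over 1.5 times after median-ratio scaling. Over all tested genes, 26.5% were then called higher and 24.6% lower in D1-W2 against the embryonic group, and 21.5% and 15.8% in W3-W8 against D1-W2. In D1-W2 against the embryonic group, other pepsin-family proteases had 0 lower, aspartic proteases of other families 3 higher and 0 lower, mucous neck cell genes 0 lower, and regulators 2 higher and 1 lower. In W3-W8 against D1-W2, other pepsin-family proteases had 1 lower, those of other families 2 higher and 1 lower, acid secretion 11 higher, chief cell 6 higher and 1 lower, regulators 4 higher, transcription factors 1 lower, other lysosomal and secreted proteases 2 higher and 0 lower, and inhibitors 1 higher.

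No paired analysis was possible because each timepoint has 1 transcriptome and the labels give no replicate numbers. The bounds cover counting error only, what levels near 0.5% of a gene's mean stand for was not tested, and the spread within a group includes age.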

Other observations

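Other lists were followed beside the proteases, in the same fit. Over all tested genes, 17.0% were called higher and 41.9% lower in D1-W2 against the embryonic group, with a median log2 difference of -0.22. In W3-W8 against D1-W2 these were 4.90%, 46.7% and -0.42. Of 11 gastric epithelial transcription factors, 7 were higher and 1 lower in D1-W2 against the embryonic group (median log2 difference 0.50), and 2 were higher and 2 lower in W3-W8 against D1-W2 (median 0.03). Gata4 rose in both comparisons, by 0.42 and 0.75 (adjusted p = 0.0322 and 0.00604 in limma), from 26.4 FPKM at E12.5 to 67.2 at W8. Klf5 fell by 1.27 on the log2 scale in the second comparison (adjusted p = 0.00633 in limma). Sox2, named after its values were seen, fell in both, by 0.92 and by 1.60 on the log2 scale (adjusted p = 0.00118 and 0.000322 in limma), from 37.2 FPKM at E12.5 to 5.34 at W8.

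Among 10 regulators linked to steroid signalling or to the change from suckling to weaning, 1 was higher and 3 were lower in the first comparison and 2 higher and 3 lower in the second. The medians of the list were -0.05 and 0.05. Over all tested genes, 41.9% and 46.7% were called lower, with medians of -0.22 and -0.42, so that falls were common in both comparisons. Nr3c1, the glucocorticoid receptor, and Thra, a thyroid hormone receptor, fell by 0.84 and by 1.18 on the log2 scale in W3-W8 against D1-W2 (adjusted p = 0.00186 and 0.000105 in limma). Fkbp5, a glucocorticoid target, fell by 1.14 on the log2 scale in D1-W2 against the embryonic group and rose by 0.62 in W3-W8 against D1-W2 (adjusted p = 0.000375 and 0.0382 in limma).

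Of 7 tested lysosomal and secreted proteases of other classes, 4 were higher and 0 lower in the first comparison and 0 higher and 1 lower in the second. The shares over all tested genes were 17.0% higher and 41.9% lower in the first, and 4.90% and 46.7% in the second. Cathepsin B (Ctsb) rose by 0.76 in the first (adjusted p = 0.00311 in limma), and its highest level was 190.3 FPKM at W6. Of 6 tested protease inhibitors, 3 were higher in the first comparison and 1 was lower in the second. Spink3, a trypsin inhibitor, was at 63.1 FPKM at W1, 1.48 at W2 and was listed at 0 at W3, and its log2 differences were 3.71 and -4.03 (adjusted p = 0.000319 and 0.00101 in limma).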
